A study of Saccharomyces cerevisiae with 25 samples.

Results

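The genes described here are 38 nuclear-encoded subunits of the mitochondrial respiratory chain and the ATP synthase of Saccharomyces cerevisiae, out of 6648 gene names in the deposited table. They were chosen by name, as known subunits, and all 38 matched the R64 annotation. The set holds 3 NADH dehydrogenases, 4 subunits of complex II, 8 of complex III, 2 cytochromes c, 9 of complex IV and 12 of the ATP synthase. The libraries were made from total RNA of a single time course in a BY4741 strain labelled pho84pr-YFP, delta-phm3. PHO84, whose promoter drives the fluorescent reporter in that genotype, encodes a phosphate transporter of the plasma membrane. The deleted PHM3 is an older name of VTC4, which encodes the polyphosphate polymerase subunit of the vacuolar transporter chaperone complex. Every library carries both alleles per the labels, so there is no wild-type control. The 0 min library came from cells growing in high phosphate, and 24 libraries were taken every 15 min from 15 to 360 min after a wash and transfer to medium without phosphate. The 24 were grouped into windows of 8: 15 to 120 min (early), 135 to 240 min (middle) and 255 to 360 min (late).

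Each time point is 1 library, and whether the libraries share a culture is not given in the labels. The spread within a window is a spread between neighbouring times, and p-values measure only that. Those from limma, a linear model fit, pool this spread over all windows. A limma p-value for the late against the middle window therefore also holds the spread of the early window. Effects of starvation, washing, fresh medium and hours in culture cannot be told apart. VTC4 was listed in all 25 libraries labelled phm3_del, at 7.66 to 8.87 log2 RPM and 50 to 517 reads, which goes against the label. How much of the gene was deleted is not given, and no undeleted strain is compared. The mating type of BY4741 is MATa: all 6 MATa markers were listed, with sums of 2560 to 5950 RPM per library, against sums of 0 to 76.9 RPM for 4 MAT alpha markers, of which MF(ALPHA)2 was listed in 0 libraries. Depth implied by the values had a median of 746734 reads. It was lowest in the 195 and 345 min libraries, with 106672 and 188278 reads, and highest at 105 min, with 1911747. Ribosomal protein genes took 34.6% of reads at 0 min, 4.4% to 6.0% in the late window, and 30.2% and 34.1% at 90 and 105 min. RPM has a fixed total, so a larger share for these genes leaves less for all others. RPM counts reads per 1000000 listed reads of a whole culture, so more cells with a transcript and more transcript per cell cannot be told apart.

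As background, the respiratory chain passes electrons from NADH and succinate to oxygen and pumps protons across the inner mitochondrial membrane, and the ATP synthase uses the returning protons to join phosphate to ADP. Budding yeast has no proton-pumping complex I: single-chain NADH dehydrogenases feed electrons to coenzyme Q instead. On glucose, yeast mostly ferments and holds respiratory genes low, and the Hap2/3/4/5 complex, which binds CCAAT, activates many of them. Some subunits have a pair of genes, an aerobic and a hypoxic isoform. The promoters of both such pairs and of QCR10 are shown because the results below turn on these genes. Each window runs from 250 bases before to 50 after the annotated coding start, in the direction of the gene, in the R64 build. Capitals mark 3 strings of letters on either strand: CCAAT, then AGGGG (named for Msn2 and Msn4, the general stress activators), and last ATTGTT (named for Rox1, the repressor of hypoxic genes).
COX5A (chrXIV:531475-531774, plus strand): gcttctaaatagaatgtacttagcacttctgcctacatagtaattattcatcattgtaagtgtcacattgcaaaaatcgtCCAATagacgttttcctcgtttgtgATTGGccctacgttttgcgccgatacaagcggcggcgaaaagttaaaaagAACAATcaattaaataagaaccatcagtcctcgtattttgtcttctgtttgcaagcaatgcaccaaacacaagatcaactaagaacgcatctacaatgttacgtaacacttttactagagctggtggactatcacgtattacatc
COX5B (chrIX:154972-155271, plus strand): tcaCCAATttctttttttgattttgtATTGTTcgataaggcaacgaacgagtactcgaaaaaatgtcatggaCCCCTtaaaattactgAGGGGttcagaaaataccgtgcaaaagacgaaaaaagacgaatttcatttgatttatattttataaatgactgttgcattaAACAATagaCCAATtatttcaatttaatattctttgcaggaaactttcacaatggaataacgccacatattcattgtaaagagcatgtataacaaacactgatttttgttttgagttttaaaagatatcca
CYC1 (chrX:526085-526384, plus strand): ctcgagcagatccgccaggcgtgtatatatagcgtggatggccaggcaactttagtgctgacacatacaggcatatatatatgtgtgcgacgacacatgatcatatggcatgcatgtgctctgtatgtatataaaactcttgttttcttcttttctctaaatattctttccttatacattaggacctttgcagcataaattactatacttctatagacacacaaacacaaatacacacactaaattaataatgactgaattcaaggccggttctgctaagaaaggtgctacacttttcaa
CYC7 (chrV:79928-80227, minus strand): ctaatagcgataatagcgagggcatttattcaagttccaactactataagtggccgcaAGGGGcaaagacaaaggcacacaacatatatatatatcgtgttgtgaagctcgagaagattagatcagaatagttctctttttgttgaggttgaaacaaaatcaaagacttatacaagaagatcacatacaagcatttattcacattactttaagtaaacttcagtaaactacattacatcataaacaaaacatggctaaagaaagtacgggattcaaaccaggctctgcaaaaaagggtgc
QCR10 (chrVIII:107576-107875, plus strand): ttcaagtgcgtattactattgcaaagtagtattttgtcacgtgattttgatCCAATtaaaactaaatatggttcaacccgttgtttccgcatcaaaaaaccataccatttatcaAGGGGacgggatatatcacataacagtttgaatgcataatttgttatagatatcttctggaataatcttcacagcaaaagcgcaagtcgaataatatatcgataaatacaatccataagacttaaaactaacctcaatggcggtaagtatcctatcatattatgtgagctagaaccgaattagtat

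CCAAT was found in the window of 32 of 38 members (84.2%), against 43.3% of 6001 promoters of the same length. AGGGG was in 18 members (47.4% against 21.6%) and ATTGTT in 16 (42.1% against 35.2%), with matches counted on both strands. The letters of CCAAT and ATTGTT can share bases where they follow each other on the same strand, as in the window of ATP5. COX5A had CCAAT at 2 places and ATTGTT at 1, and no AGGGG. COX5B had CCAAT and AGGGG at 2 places each and ATTGTT at 2. CYC1 had none of the 3 and CYC7 had AGGGG at 1 place, while QCR10 had 1 CCAAT and 1 AGGGG. A match is a description of the letters and not a known binding site, and no match says only that these letters are not in this window.

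Whether respiratory genes moved as starvation went on was asked by setting the late window against the early one, without the single 0 min library. Most of them rose. Of 34 members tested, 30 were higher late and 0 lower, with a median difference of 0.84 log2 units, against 31.5% of 4634 tested genes higher, 8.85% lower and a median of 0.23 (limma, Benjamini-Hochberg adjusted p under 0.05). Both tested complex II genes, all 8 complex III genes, 8 of 9 complex IV genes and all 12 ATP synthase genes rose. NDE1, both cytochrome c genes and COX6 did not pass. The other 4 members, NDI1, NDE2, SDH1 and SDH2, were listed in too few libraries to be tested, and 26 of the 38 were listed in all 25.

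The count changed with the scaling. Centring every library on the median of the 2205 genes listed in all 25 left 26 members higher, against 21.1% of genes (15.4% lower). With the ribosomal protein reads taken out of the total, 23 were higher and 1 lower, against 15.8% and 19.1% of genes. Centring on the median of all tested genes left 16 members higher, against 12.9% (18.1% lower), so among all genes the balance of higher and lower turned with the scaling. The members called higher under all 3 were SDH4, the 6 complex III genes other than QCR6 and QCR8, COX4, COX5B, COX12, ATP1, ATP3, ATP7, ATP14, ATP15 and ATP18. In the main fit and under each of the 3, 32 of 34 members lay above the median of all tested genes. A scaling moves all genes listed in a library by the same amount, so this count could hardly change and is no check of the scaling. Without the 90 and 105 min libraries 27 members were higher (25.5% of genes), and 24 (18.3%) when that was joined to centring on the genes listed in all 25, a setting chosen after seeing the data. Without the shallow 195 and 345 min libraries it was 31 (31.1%).

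**Figure D1:**
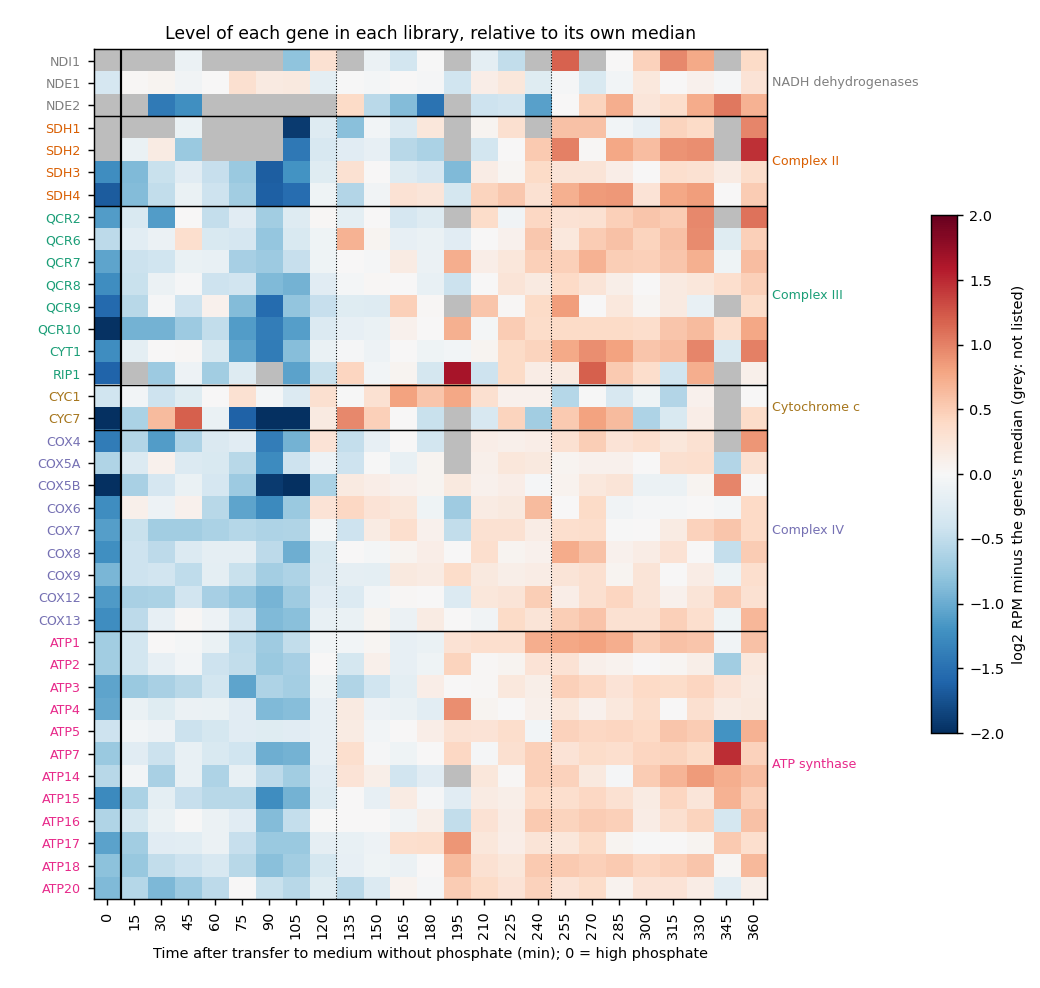
Each row is 1 of the 38 genes and each column 1 library, from 0 min in high phosphate to 360 min without phosphate; colour gives the log2 RPM minus that gene's median over its listed libraries, cut at 2 units either way, and grey marks a gene with fewer than 10 reads. Most rows are blue at 0, 90 and 105 min and red after 240 min, while NDE1 and CYC1 stay pale, and the 195 and 345 min columns, with 106672 and 188278 reads, break the trend.

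The early libraries differed among themselves. Over the 26 members listed in all libraries, the median difference from 0 min stood at 0.83 in the 45 min library. It was 0.20 and 0.30 in the 90 and 105 min libraries, then 1.06 at 135 min and 1.45 at 360 min. At 90 min, 17 of the 26 (65.4%) lay above 0 min, near the 59% of all genes. At 105 min 25 of the 26 did (96.2%), against 50% of all genes, and at 360 min all 26 did, against 66.7%. The median of all 2205 genes in those 5 libraries was 0.42, 0.07, 0.00, 0.53 and 0.33, so both medians were lower at 90 and 105 min than at 45 min, while at 360 min the members stood higher than at 135 min and all genes lower. The ribosomal protein share of reads was 11% at 45 min, 30.2% at 90 min and 34.1% at 105 min. The part of this share in the low values at 90 and 105 min was not tested. Of the 34 members listed at 0 min, 18 exceeded it in every starved library that listed them, against 18.4% of genes under the same rule, and 9 did with libraries centred on the genes listed in all 25, against 9.89%.

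The windows separated fully for many genes. In 16 of 34 members, every listed late library exceeded every listed early library, against 8.55% of tested genes, and without the 345 min library it was 24, against 9.91%. In 0 members did every late library lie below every early library, against 3.5% of genes. These counts, and the overlaps given per gene below, used RPM without centring. How they change with the scaling was not tested.

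**Figure D2:**
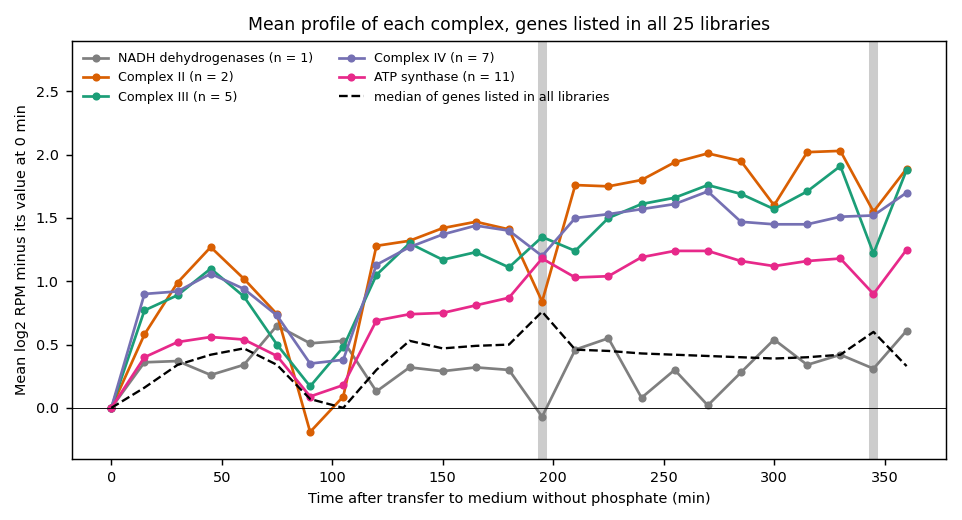
Lines give the mean log2 RPM of each complex minus its own 0 min value in each library, over the members listed in all 25 libraries, and the dashed line is the median of 2205 genes; grey bands mark the shallow 195 and 345 min libraries. Complexes II, III and IV run above the ATP synthase from 120 min on except at 195 min, where complex II lies lower, and the single NADH dehydrogenase gene, NDE1, never exceeds 0.65.

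The complexes stood at different heights above 0 min. In the late window, complex II stood 1.87 ± 0.19 log2 units above 0 min (SD over 8 libraries, mean of 2 genes). Complex III stood at 1.67 ± 0.21 (5 genes), complex IV at 1.55 ± 0.11 (7 genes) and the ATP synthase at 1.16 ± 0.11 (11 genes). Centred on the genes listed in all 25, these means were 1.43, 1.23, 1.11 and 0.72. Single genes overlapped between complexes. Without centring, the tested genes stood 1.48 to 2.27 above 0 min late in complex II and 0.96 to 2.46 in complex III. They stood at 0.67 to 2.57 in complex IV and 0.71 to 1.65 in the ATP synthase. Because each difference between complexes is taken within a library, it does not depend on the scaling. Complex III exceeded the ATP synthase in 8 of 8 libraries of every window, by 0.31 ± 0.15 early, 0.37 ± 0.14 in the middle and 0.52 ± 0.12 late. Complex IV exceeded it in 8 of 8 as well, by 0.38 ± 0.11, 0.46 ± 0.20 and 0.40 ± 0.11, and by as little as 0.02 in 1 middle library. Its 7 genes include COX5B, which stood 2.57 above 0 min late, while the others ran from 1.08 (COX9) to 1.64 (COX13). COX5A (0.67) and COX4 (1.80) are not among the 7, as they were not listed in every library. Whether complex IV would keep its place without COX5B was not tested. Complexes III and IV did not keep an order: complex III was the higher of the pair in 2 of 8 early and 7 of 8 late libraries. All these values share the 1 library at 0 min as their zero, and they are given without a test.

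The NADH dehydrogenases face the matrix (NDI1) or the intermembrane space (NDE1 and NDE2). NDE1 was at 6.62 log2 RPM at 0 min, 6.75 to 7.27 (median 6.99) early, 6.55 to 7.17 (6.93) in the middle and 6.64 to 7.23 (6.94) late, so that the windows overlapped over almost their whole range. Its late minus early difference was -0.04 (95% interval -0.28 to 0.20, adjusted p = 0.798 by limma). NDE2, its paralog, was not listed at 0 min, nor in 6 of 8 early libraries; it stood at 4.32 and 4.51 at 30 and 45 min, at 4.27 to 6.12 in 7 middle libraries and at 5.74 to 6.80 in all 8 late ones. Every late value lay above both early values, and the late median was at least 11.6-fold above the limit of 10 reads at 0 min. NDI1 was listed in 0, 3, 5 and 6 libraries of high phosphate and the successive windows, and its late median was at least 3.39-fold above that limit.

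Complex II is succinate dehydrogenase, which also works in the TCA cycle. SDH4, a membrane anchor subunit, had the larger rise of the 2 tested genes: it was at 5.50 log2 RPM at 0 min, 5.52 to 7.07 (median 6.57) early, 6.57 to 7.70 (7.42) in the middle and 7.16 to 8.02 (7.91) late. No late library overlapped an early one, and the difference was 1.34 (SE 0.21, 2.52-fold, adjusted p = 1.23e-05 by limma). SDH3, the cytochrome b subunit, went from 7.03 at 0 min to 6.63 to 8.05 (7.68) early and 8.28 to 8.63 (8.54) late, again without overlap, and differed by 0.96 (SE 0.19), a call that centring on the tested genes ended. SDH1, the flavoprotein, and SDH2, the iron-sulfur protein, were not listed at 0 min. Their late medians were at least 4.63-fold and 6.97-fold above the limit there.

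Complex III, the cytochrome bc1 complex, takes electrons from coenzyme Q to cytochrome c. QCR10, a small subunit, rose the most among the complex III members, from 5.54 log2 RPM at 0 min to 6.14 to 7.25 (median 6.58) early, 7.35 to 8.23 (7.57) in the middle and 7.87 to 8.30 (7.91) late. The early window lay wholly below both later windows, which overlapped each other. The late minus early difference was 1.35 (SE 0.15, 2.55-fold, adjusted p = 8.69e-08 by limma), and its promoter above holds CCAAT and AGGGG 1 time each. CYT1, which encodes cytochrome c1, differed by 1.15 (SE 0.20), and COR1, a core subunit outside the chosen set, by 1.09 (SE 0.16). QCR6 rose least, from 7.26 to 8.37 (7.79) early to 7.80 to 8.98 (8.53) late with overlap, by 0.66 (SE 0.17). Centring on the tested genes, or leaving out ribosomal protein reads, ended its call, and the first also ended that of QCR8 (0.68). RIP1, the Rieske iron-sulfur protein, was the lowest of the complex per coding length, at 6.05 log2 RPM per kb late, and differed by 0.93 (SE 0.27).

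Cytochrome c carries electrons from complex III to complex IV, and CYC1 and CYC7 encode its aerobic and hypoxic isoforms. CYC1 was at 6.05 log2 RPM at 0 min, 6.04 to 6.77 (median 6.41) early, 6.44 to 7.25 (6.76) in the middle and 5.87 to 6.54 (6.37) in the 7 late libraries that listed it. Its late minus early difference was -0.16 (95% interval -0.49 to 0.16, adjusted p = 0.432), and it passed as lower only with ribosomal protein reads taken out of the total (-0.44, adjusted p = 0.0345). CYC7 had the largest SD within the early window of the tested members (1.43, n = 8). It stood at 3.70 in high phosphate and at 7.59, 3.65 and 7.36 in the 45, 105 and 135 min libraries, and ranged over 5.79 to 7.20 (6.77) in 7 late libraries. Early values spanned 3.65 to 7.59 and so enclosed all late ones. The difference of 0.91 (SE 0.44, adjusted p = 0.106 by limma) did not pass, but did without the 45 min library (1.17, adjusted p = 0.0228) or the 30 min library (1.10, adjusted p = 0.0484). Without the 90 and 105 min libraries it was 0.28 (adjusted p = 0.552), and under the joint setting 0.19 (adjusted p = 0.718), so its size depends on which early libraries are kept.

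**Figure D3:**
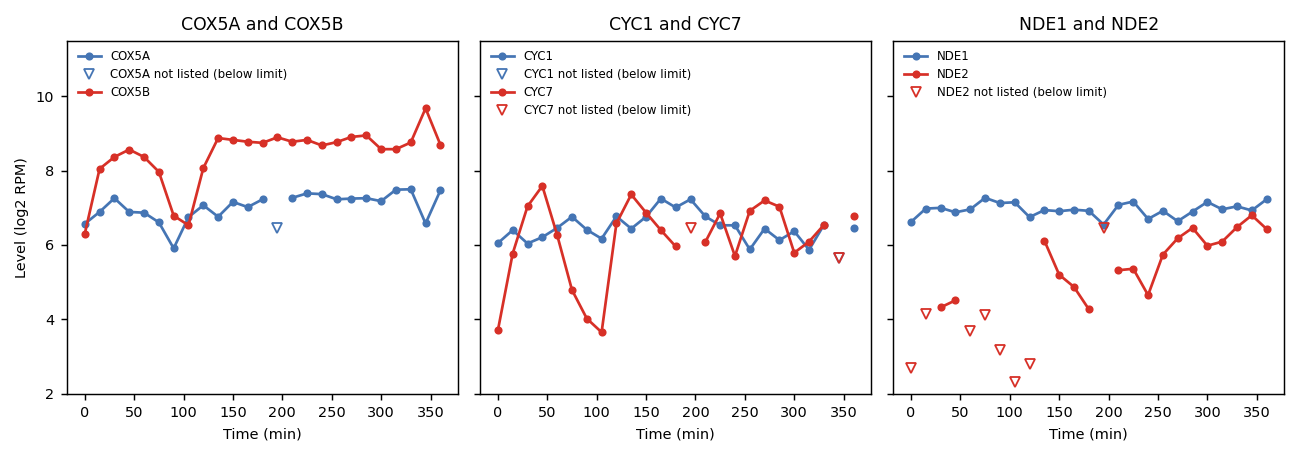
Points give log2 RPM over time for 3 pairs of paralogs, and open triangles mark the limit below which a gene with fewer than 10 reads was not listed; at 345 min the triangles of CYC1 and CYC7 coincide. COX5B crosses COX5A after 0 min and returns to it at 105 min, CYC7 ranges between 3.65 and 7.59 around a flatter CYC1, and NDE2 climbs toward a flat NDE1.

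Complex IV, cytochrome c oxidase, passes the electrons to oxygen. Its subunit 5 comes as an aerobic isoform, COX5A, or a hypoxic one, COX5B. COX5B was at 6.30 log2 RPM at 0 min, 6.53 to 8.57 (median 8.06) early, 8.68 to 8.90 (8.80) in the middle and 8.58 to 9.68 (8.76) late. Every late library exceeded every early one, by a mean of 1.02 (SE 0.23, 2.03-fold, adjusted p = 0.000684 by limma). COX5A went from 6.57 at 0 min to 5.91 to 7.26 (6.88) early and 6.58 to 7.50 (7.25) late, with overlap. Its difference was 0.46 (SE 0.16, adjusted p = 0.025), and it did not pass under any of the 3 other scalings. COX4, a zinc-binding subunit, rose as far as COX5B, from 4.63 to 6.29 (5.42) early to 6.24 to 6.90 (6.33) in 7 late libraries, by 1.02 (SE 0.19). COX6 differed by 0.49 (SE 0.20, adjusted p = 0.0573) and passed in several other settings, for example without the 195 and 345 min libraries (0.50, adjusted p = 0.0416). COX12 rose by 0.90. COX7 (0.82), COX13 (0.76), COX8 (0.66) and COX9 (0.60) rose too, but not with libraries centred on the tested genes.

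The ATP synthase genes rose in all 12 cases, by 0.38 to 1.01, against 31.5% of all genes. Centred on genes listed in all 25 it was 9 of 12 (21.1% of all genes), without ribosomal protein reads 7 (15.8%), and centred on the tested genes 6 (12.9%). ATP18, the subunit i or j gene of the membrane part, had the largest difference: it was at 8.75 log2 RPM at 0 min, 8.73 to 9.25 (median 9.05) early, 9.41 to 10.21 (9.69) in the middle and 9.61 to 10.22 (10.07) late. No late library overlapped an early one, and the difference was 1.01 (SE 0.13, adjusted p = 6.61e-07 by limma). Of the central stalk, ATP3 (gamma) rose by 0.95, ATP16 (delta) by 0.59 and ATP15 (epsilon) by 0.99. Of the catalytic head, ATP1 (alpha) rose by 0.85 (SE 0.15) and ATP2 (beta) by 0.38 (SE 0.15, adjusted p = 0.0407). ATP2 was at 8.60 to 9.36 (8.96) early and 8.66 to 9.64 (9.43) late, with wide overlap, and did not pass under any of the 3 other scalings. The same held for ATP5, the oligomycin sensitivity subunit (0.51), and ATP16. ATP4 (0.54) and ATP20 (0.66) were not called with centring on the tested genes or without ribosomal protein reads, nor ATP17 (0.62) with the first. ATP5 stood at 6.32 in the 345 min library and at 7.92 to 8.22 in the other 7 late ones.

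**Figure D4:**
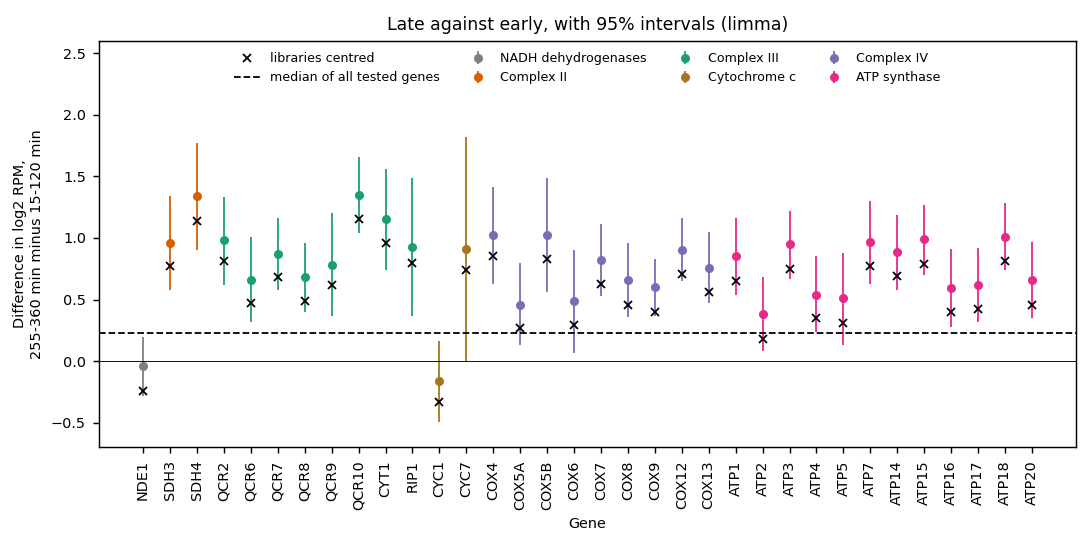
Points give the late minus early difference in log2 RPM for each of the 34 tested genes with its 95% interval from limma, crosses give the same difference with libraries centred on the median of genes listed in all 25, and the dashed line is the median of all 4634 tested genes at 0.23. NDE1 and CYC1 lie below 0 and all other points above the dashed line.

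Against the single high phosphate library, the comparison asks what had changed 255 to 360 min after the transfer. Of 34 members, 29 were higher and 0 lower, with a median of 1.40, against 25% of 4613 genes higher, 5.46% lower and a median of 0.42 (limma). CYC7 rose most, by 2.92 (SE 0.91, 7.57-fold), followed by COX5B (2.57, 5.93-fold), QCR10 (2.46, 5.51-fold) and SDH4 (2.27, 4.82-fold). NDE1 (0.35), CYC1 (0.19), COX5A (0.67), ATP2 (0.71) and ATP5 (0.71) did not pass. NDE1 and CYC1 changed sign under the other scalings, at -0.09 to -0.22 and -0.22 to -0.35. With libraries centred on genes listed in all 25 the count was 22 (13% of genes higher, 9.49% lower), without ribosomal protein reads 18 (10.9% and 10.8%), and centred on the median of tested genes 8 (8.52% and 9.54%). Without the 90 and 105 min libraries, which are in neither of the groups compared, it was 29 (28.4% higher). Without 195 and 345 min it was 31 (27.1%), and under the joint setting 23 (14.5%). Those 8 were SDH4, QCR2, QCR9, QCR10, RIP1, CYC7, COX4 and COX5B, and 0 of 12 ATP synthase genes were among them. Every value here assumes that the 1 library at 0 min varies like the others.

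For 15 to 120 min against high phosphate, the members' median difference was 0.61, against 0.22 for all 4613 tested genes. At an unadjusted limma p under 0.05 there were 13 of 34 members and 647 of the 4613 genes. After adjustment 0 of 34 members passed in either direction, where limma called 0.694% of genes higher and 0% lower. Leaving out the 90 and 105 min libraries together gave 10 members higher, against 11.7% of genes. Those 10 were SDH4, QCR8, QCR9, QCR10, CYC7, COX5B, COX8, COX13, ATP4 and ATP15, led by CYC7 (2.64) and COX5B (1.94). With centring on the genes listed in all 25 as well, 3 were higher, CYC7, COX5B and QCR10 (5.44%). Left out alone, the 90 min library gave 2, COX5B and QCR10 (1.98% of genes), and the 105 min library gave COX5B (2.57%).

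From 135 to 240 min to 255 to 360 min, the members' median difference was 0.25, against 0.04 for all 4634 tested genes. At an unadjusted limma p under 0.05 there were 13 of 34 members and 880 of the 4634 genes. After adjustment 0 members passed in either direction, where limma called 1.17% of genes higher and 0.906% lower. CYC1 came nearest, with a difference of -0.57 (SE 0.16, adjusted p = 0.0501), and was lower in several other settings, with adjusted p from 0.0340 to 0.164 over the settings tried. QCR2, a core protein of complex III, differed by 0.61 (adjusted p = 0.0663) and CYT1 by 0.58 (adjusted p = 0.102). Without the 345 min library CYT1 passed (0.72, adjusted p = 0.0306). Leaving out 90 and 105 min, which are in neither window, gave 2 members higher, QCR2 and CYT1 (3.07% of genes), and CYC1 lower (2.27%). Their differences stayed at 0.61, 0.58 and -0.57, as only the pooled spread and the genes tested changed. Leaving out 195 and 345 min gave 3 higher, CYT1, QCR7 and ATP5 (1.25%). CYC1 was lower with centring on the genes listed in all 25 (2.16%) and without ribosomal protein reads (2.01%), and the joint setting gave QCR2 higher (3.24%) and CYC1 lower (2.91%).

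Ratios within a pair of paralogs do not depend on library scaling. Per coding length, COX5B was at 0.838 times COX5A in high phosphate, 3.25 and 0.871 times in the 45 and 105 min libraries and 2.15 to 8.67 times late. The highest of these, at 345 min, came from the shallow library, and the other 7 late values ran from 2.15 to 3.28. CYC7 was at 0.189 times CYC1 in high phosphate, 2.51 and 0.168 times in the 45 and 105 min libraries and 0.643 to 1.99 times late. Both ratios at 105 min were near their 0 min value, and ribosomal protein genes took 34.1% of reads there against 34.6% at 0 min, a link that was not tested. At 90 min, with a share of 30.2%, COX5B to COX5A was 1.87 and CYC7 to CYC1 0.184. At 75 min, with 18.1%, they were 2.6 and 0.245. The late minus early difference of the log2 ratio was 0.56 for COX5B to COX5A (8 against 8 libraries, two-sided exact permutation test, p = 0.0657, adjusted over 3 ratios 0.0986). For CYC7 to CYC1 it was 1.07 (7 against 8 libraries, exact permutation p = 0.102, adjusted p = 0.102). Without the 45 min library both passed, at 0.65 and 1.36 (adjusted p = 0.0326 for each by the same exact permutation test). Without 90 and 105 min they were 0.32 and 0.48 (adjusted p = 0.376 and 0.378, exact permutation), and without 345 min COX5B to COX5A was 0.35 (adjusted p = 0.131, exact permutation). For NDE2 to NDE1 the ratio late was 0.452 to 0.938, against 0.161 and 0.200 in the 2 early libraries that listed NDE2. The difference of 1.82 gave the smallest p that 8 against 2 libraries allow (exact permutation p = 0.0444, adjusted p = 0.0986). With unlisted values set to the limit of 10 reads, it was at least 2.62 (adjusted p = 0.000466 by the exact permutation test).

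**Figure D5:**
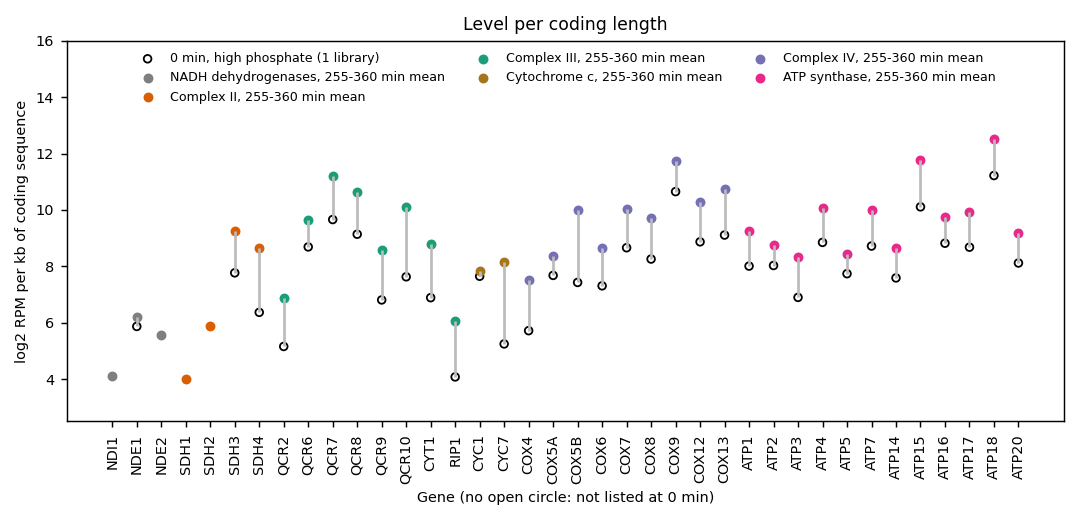
For each gene, the open circle is its level in the 1 high phosphate library and the filled circle its mean over the late libraries that listed it, as log2 RPM per kb of coding sequence; genes with no open circle were not listed at 0 min. Late levels run from SDH1 at 4.02 to ATP18 at 12.5, and members of 1 complex are spread over several units.

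Levels of different genes were compared per kb of coding sequence, which assumes reads along the whole transcript, a point not given in the sources used here. Within complex II the late means ran from 4.02 log2 RPM per kb for SDH1 (7 of 8 libraries listed) to 9.25 for SDH3, and within complex III from 6.05 for RIP1 to 11.2 for QCR7.

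The lists that follow are read against all tested genes, of which 31.5% were higher and 8.85% lower late against early, and 25% higher against high phosphate. Late against early, 21.1% were higher and 15.4% lower with centring on genes listed in all 25. It was 15.8% and 19.1% without ribosomal protein reads, and 12.9% and 18.1% with centring on the tested genes. Of the other nuclear subunits, COR1, ATP19 and TIM11 rose late against early, 3 of 3 tested (1 to 3 under the other scalings), with COR1 the farthest. None of the 7 subunits encoded in mitochondrial DNA (COB, COX1, COX2, COX3, ATP6, ATP8 and OLI1) had a value in any library, so nuclear and mitochondrial subunits could not be compared. Of 7 tested regulators of respiratory genes, HAP5, a DNA-binding part of the CCAAT complex (0.91), MIG1, a glucose repressor (0.86), and HAP3 (0.41, adjusted p = 0.044) were higher (3 of 7, 42.9%, against 31.5% of genes) and 0 lower. Under each of the 3 other scalings 2 of 7 were higher. HAP3 did not pass under any of the other 3 scalings, and HAP1, the heme-responsive activator, did not pass (0.28, adjusted p = 0.312 by limma). The HAP1 values were whole reads in only 11 of the 20 libraries that list it. HAP4, the activating and limiting subunit, was not listed at 0 min and was listed in 4 of 8 early, 3 middle and 7 late libraries, at 3.47 to 3.92, 3.80 to 4.41 and 3.77 to 4.92 log2 RPM. HAP2 and ROX1 were listed in too few libraries to be tested: ROX1 stood at 3.02 to 4.96 in 6 early and 4.42 to 5.48 in 7 late ones. HAP2 stood at 3.92 to 4.93 in 5 early and 3.72 to 4.90 in 6 late ones.

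The inhibitors of the ATP synthase are small proteins that bind it when it would run in reverse and break down ATP, or that steady this binding. All 3 were higher late than in the 1 high phosphate library, where 25% of genes were. STF1 rose by 2.86 (SE 0.57, 7.28-fold), STF2 by 2.79 (SE 0.82) and INH1, named after its values were seen, by 2.66 (SE 0.48, 6.34-fold). All 3 stayed called under the 3 other scalings. Late against early, STF1 (1.17) and INH1 (0.99) were higher, and STF2 (0.47, adjusted p = 0.351) did not pass. Carriers that bring ADP and phosphate to the enzyme rose late against early in 3 of 4 cases, against 31.5% of genes, and in 2 of 4 under each other scaling. AAC1, a minor ADP/ATP carrier gene, rose by 1.54 (SE 0.16, 2.91-fold, adjusted p = 2.7e-08 by limma), and MIR1, the main mitochondrial phosphate carrier gene, named after its values were seen, by 0.93 (SE 0.14).

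Other enzymes listed as electron donors to the chain rose in 3 of 4 cases late against early (31.5% of genes) and in 4 of 4 against the 1 high phosphate library (25%), led by MCR1, a mitochondrial cytochrome b5 reductase gene (1.42, SE 0.23, and 2.77, SE 0.48). Under the 3 other scalings the count late against early stayed at 3 of 4.

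Late against early, the assembly lists had shares of higher genes (28.6%, 27.6% and 23.1%) a little under the 31.5% of all genes. For complexes II and III, 4 of 14 were higher and 0 lower (2 and 1 under each other scaling), with SDH8 the farthest (1.28, SE 0.18). Against high phosphate 6 of 14 were higher, against 25% of genes, led by SDH6 (3.76, SE 0.58, 13.6-fold). For complex IV, 8 of 29 were higher and 3 lower late against early (10.3%, against 8.85% of genes), among them COX20 (0.75), a chaperone of subunit 2, and COX23 (-0.84). COX20 did not pass when centred on the tested genes or without ribosomal protein reads. With libraries centred on genes listed in all 25 this became 3 higher and 4 lower, where 21.1% of all genes were higher and 15.4% lower. With centring on the median of tested genes it was 0 and 6, against 12.9% and 18.1%. The balance of this list turned with the scaling, as it did over all genes. For the ATP synthase, 3 of 13 factors were higher and 0 lower (2 or 3 and 1 or 2 under the other scalings), led by AEP3 (0.91, SE 0.18). Coenzyme Q synthesis had 4 of 10 higher and 1 lower, near the 31.5% and 8.85% of all genes, with COQ4 at 1.12 and COQ3 at -0.57; under the 3 other scalings 1 or 2 were higher and 1 or 2 lower. Heme synthesis and attachment had 2 of 9 higher (22.2%, against 31.5% of genes), CYC3, the cytochrome c heme lyase gene (0.70, not passing when centred on the tested genes or without ribosomal protein reads), being the farther, and 0 lower; under the other scalings 0 or 1 were higher and 2 or 3 lower. Of the 2 supercomplex factors, RCF2 was higher (0.51, adjusted p = 0.0154) and did not pass under any of the other 3 scalings. Without the 90 and 105 min libraries 25.5% of all tested genes were higher. The higher count there was 2 for the complex II and III factors, 2 for coenzyme Q and 1 for heme. No difference between lists was tested.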

How the data were processed

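Per the submitters' processing notes, the aligner was Bowtie and the build R64. Its version, the annotation and the counter are not stated in what was read here. The authors deposited log2 RPM: as powers of 2 the values sum to about 1000000 per library, and genes under 10 reads have none. The series text describes normalisation to the first time point, but the values are not such ratios. Between 93.5% and 95.4% of values per library were whole reads (within 0.02 reads), so no count test was used; member values were whole reads in all libraries that list them, except COX6 in 1.

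Log2 values were fitted with limma 3.58.1 (R 4.3.3), with high phosphate and 3 windows as levels, for genes listed in at least 6 of 8 libraries per window (and at 0 min for contrasts with it), adjusted over all genes by Benjamini-Hochberg with a threshold of 0.05. The pipeline was tested on simulated data. Paralog ratios had exact permutation tests over libraries. Of 6701 rows, 51 had no name and 2 shared one and were left out. Intervals and the limit of 10 reads cover counting and spread between libraries only.

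Members and gene lists were chosen with earlier results of these data known. All members are named; values are given for the largest and smallest difference in each complex, paralog pairs, members that did not pass or changed call under a scaling, HAP1 to HAP5, ROX1 and the called gene with the largest difference either way in each other list. Replicate numbers are names only. Alternatives were 3 other scalings, filters, a pseudocount of 10, limma's trend and robust options, and left-out libraries.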

Additional observations from a re-analysis of the deposited data

Results flagged for a closer look

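Among 119 sets of values of a member or ratio within a window, 18 had 1 library apart from the rest by Dixon's 95% limit; chance gives about 1 in 20. The 345 min library, the second shallowest at 188278 reads, was the one apart in 11 of the 18. There it was the lowest late library for QCR7 (9.24 log2 RPM, nearest other 9.81), CYT1 (7.73), COX5A (6.58), ATP1 (9.34), ATP2 (8.66), ATP5 (6.32, nearest other 7.92), ATP16 (8.02) and ATP18 (9.61). It was the highest for COX5B (9.68) and ATP7 (10.02), and for the log2 ratio of COX5B to COX5A (3.10, nearest other 1.69, not divided by length).

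The 195 min library, the shallowest, was the highest of the middle window for RIP1 (6.69) and ATP4 (10.36). RIP1 had 11 reads there, and the limit of 10 reads lay at 6.55, above its nearest other middle value of 5.47. Any listed RIP1 value in that library was therefore bound to be the highest. The 105 min library was the lowest of the early window for COX8 (6.43) and for the log2 ratio of COX5B to COX5A (-0.22). The other 3 were COX7 at 120 min (7.27, highest early), COX8 at 210 min (7.74, highest of the middle window) and COX4 at 360 min (6.90, highest late).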

How the results depend on the processing

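Higher members late against early numbered 28 to 31 when single libraries were left out, where 28.1% to 33.3% of all tested genes were higher. They numbered 16 with centring on the median of tested genes (12.9% of genes), and 1 was lower without ribosomal protein reads (19.1%). Against high phosphate the count was 28 to 31 (24.3% to 26.5% of genes). It was 8 with that centring (8.52%) and 18 without ribosomal protein reads (10.9%). Early against high phosphate it was 0 to 2 with single libraries left out (0.573% to 2.57% of genes). Without 90 and 105 min it was 10 (11.7%). It was 3 (5.44%) when this was joined to centring on genes listed in all 25, a joint setting chosen after seeing the data. Late against middle, single libraries left out gave 0 to 1 higher (0.844% to 1.8% of genes) and 0 to 1 lower (0.494% to 1.49%). There, 1 was higher with genes listed in at least 4 of 8 libraries (SDH2, 1.14% of genes). It was 1 with genes listed in all 25 (ATP3, 2.22%) and 1 with the joint setting (QCR2, 3.24%). Leaving out 90 and 105 min gave 2 (3.07%), and leaving out 195 and 345 min gave 3 (1.25%). CYC1 was lower in 17 of 35 settings, 10 of them with 1 library left out. Early libraries are in neither of these windows, so here leaving them out acted only through the pooled spread and the genes tested. The cause of the other changes was not tested.

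Signs reversed for values that had not passed. Against high phosphate late, in the order tested-gene centring, all-25 centring, without ribosomal protein reads and joint setting, CYC1 gave -0.31, -0.22, -0.35 and -0.22 and NDE1 -0.22, -0.09, -0.18 and -0.09. Early, in the same order, ATP5 gave -0.06, -0.04, -0.06 and -0.12, ATP14 -0.09, -0.08, -0.10 and -0.08, and COX5A -0.05, -0.03 and -0.05 in the first 3. Late against early, NDE1 gave 0.00 without 90 and 105 min and 0.01 without 270 min, and STF2 gave -0.11 without 90 and 105 min and -0.23 in the joint setting.

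Log2 ratios late against early ranged over 0.35 to 0.65 for COX5B to COX5A, 0.81 to 1.36 for CYC7 to CYC1 and 1.74 to 1.89 for NDE2 to NDE1 with single libraries left out, and without 90 and 105 min were 0.32 and 0.48 for the first pair of ratios. With unlisted values at the limit, chosen after seeing the data, the last was 2.62 and passed (exact permutation, adjusted p = 0.000466). NDI1, NDE2, SDH1 and SDH2 were listed in fewer than 6 of 8 libraries of some window and so not tested; NDE2 had no value in the deepest library (105 min) but had one at 345 min, the second shallowest, and the part of depth was not tested. No paired analysis was possible because replicate numbers only name the time points.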
